A study of Homo sapiens with 12 samples.

Results

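The MYC, MAX and MXD network was described here through 10 genes, chosen by name (MYC, MYCL, MYCN, MAX, MXD1, MXD3, MXD4, MXI1, MNT and MGA) out of the 60558 genes present in both expression tables of the study. RNA-seq was performed on 12 libraries of MDA-MB-231 cells, an established human triple-negative breast cancer (TNBC) cell line, to ask which genes depend on the paraspeckle protein NONO and on the glycolytic enzyme PKM2. The 2 experiments, one per target, each had 3 knockdown (KD) libraries and 3 negative control (NC) libraries of their own, so no library was shared. The NC cells were labelled WT and the KD cells NONO knockdown or PKM2 knockdown, and the series attributes the knockdowns to siRNA. All groups are 1 cell line, and no source used here ties the libraries to separate cultures, so P values measure the spread between libraries only.

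MYC is a basic helix-loop-helix leucine zipper transcription factor that binds DNA as a heterodimer with MAX, mostly at E-box sequences such as CACGTG, and promotes transcription of growth, ribosome and nucleotide synthesis genes. The MXD proteins (MXD1, MXD3, MXD4 and MXI1, which is also known as MXD2) and MNT compete for the same partner and the same sites, and repress transcription through SIN3 and histone deacetylases. MGA is a much larger MAX partner that belongs to the variant Polycomb complex PRC1.6. MYC is often gained or highly expressed in TNBC, and the balance between MYC and the MXD proteins is usually described as a balance between growth and quiescence or differentiation.

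The E-box is shown first because the network proteins share it. RefSeq promoter windows (GRCh38.p14, from 250 bases before to 50 bases after an annotated start) were found for 9 of the 10 genes, all but MYC. Of the 9, 2 (MXD4 and MNT) held CACGTG, which reads the same on both strands. Of all 27305 gene symbols with a window, 8.77% had the motif in at least one. The share was 50% (12 of 24) for the ribosome biogenesis targets of MYC, 56.5% (13 of 23) for its growth and metabolism targets, 38.1% (8 of 21) for its polyamine and nucleotide targets and 0 of 7 for the genes it represses. The sites of the 2 network genes follow, with those of SRM and SLC7A5, which fell after PKM2 knockdown, and of UTP20, which rose. The motif was also found for DHODH and TERT, which fell after PKM2 knockdown and are not printed. The capitals mark the motif, each sequence runs 5′ to 3′ on the strand of its gene, and the matches are letters in a window, not measured binding.
MXD4 (chr4:2262330-2262359, minus strand): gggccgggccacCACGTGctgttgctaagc
MNT (chr17:2401236-2401265, minus strand): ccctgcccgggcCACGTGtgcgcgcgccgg
SRM (chr1:11060200-11060229, minus strand): ccggccgggcccCACGTGgcccctggagcg
SLC7A5 (chr16:87869620-87869649, minus strand): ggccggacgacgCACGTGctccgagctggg
UTP20 (chr12:101280083-101280112, plus strand): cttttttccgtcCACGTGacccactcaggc

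Depth lay between 19861762 and 28455268 estimated counts per library. The targeted genes were checked first, in CPM (counts scaled to library size) after TMM normalization, with mean ± SD of 3 libraries. NONO went from 373 ± 16.7 CPM in NC to 62.7 ± 1.40 CPM in NONO-knockdown cells, and PKM, whose gene-level count does not separate the PKM1 and PKM2 isoforms, from 2270 ± 56.8 CPM to 227 ± 8.30 CPM in PKM2-knockdown cells. In the other experiment each target rose, NONO by 0.30 after PKM2 knockdown and PKM by 0.26 after NONO knockdown, as log2 fold changes. The edgeR adjusted P values were 7.54e-05 and 0.000122. All 6 genes fixed as present in MDA-MB-231 (such as VIM and CD44) reached 1 TPM (transcripts scaled per length and library) in each library. Of the 6 fixed as absent, ESR1, PGR and CDH1 stayed below 1 TPM, while KRT8 (123 to 231 TPM), EPCAM (1.29 to 3.73 TPM) and GATA3 (1.33 to 4.37 TPM) were detected. Of 6 markers of other cell types, CD3E and HBB were at 0, the endothelial gene PECAM1 reached 2.31 TPM in the PKM2 experiment, and the summed level of the 6 was 1.42 to 2.46 TPM in NC and 0.84 to 1.54 TPM in KD there, and 0.25 to 0.87 TPM against 0.56 to 1.10 TPM in the NONO experiment. Its part in the results was not tested.

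Per length, MYC was the most abundant transcript of the network in all 4 groups. In the NC cells of the NONO experiment, MYC was at 259, 321 and 293 TPM and MAX at 59.6, 74.5 and 73.4 TPM. MXI1, MXD3 and MXD4 followed, with means of 28.0, 23.6 and 20.4 TPM, then MNT at 14.4, MGA at 10.3 and MXD1 at 6.77 TPM. The order of the means was the same in the NC cells of the PKM2 experiment and in NONO-knockdown cells, and in these 3 groups only MXI1 and MXD3, and MXD3 and MXD4, had ranges over the 3 libraries that overlapped among the expressed neighbours. In PKM2-knockdown cells the order was MYC, MAX, MXI1, MNT, MXD4, MGA, MXD1 and MXD3. MXD3 thus stood last of the 8 there, although the ranges of MGA and MXD1, of MXD1 and MXD3, and of MXI1 and MNT overlapped. The level of MYC is not set across the experiments, because its deposited length differs between the tables, unlike that of the other 9 genes. In bulk RNA, fewer cells that express a gene and less of its RNA per cell cannot be told apart.

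**Figure D1:**
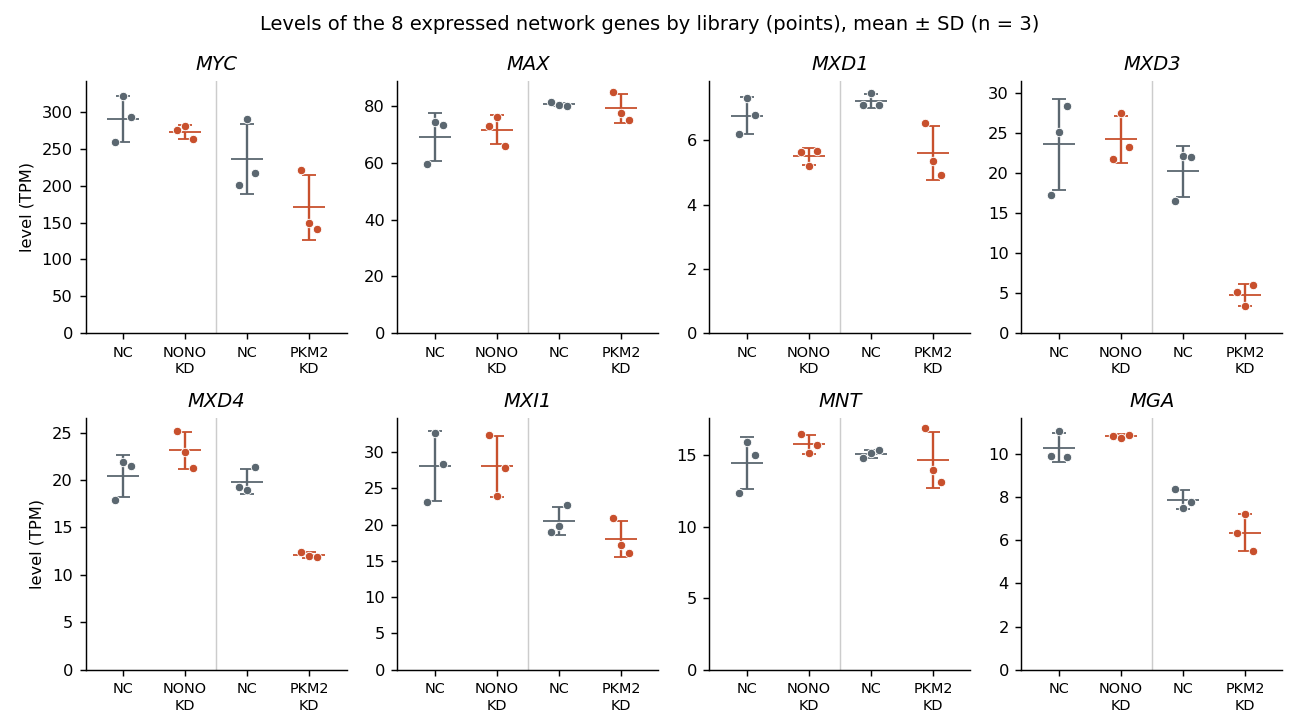
Level of the 8 expressed network genes in TPM (vertical axes, linear from 0) in the NC and KD libraries of the NONO experiment (left of the grey line) and the PKM2 experiment (right). Points are libraries, and bars are the mean ± SD of 3; MXD3 lies between 16.5 and 28.4 TPM in the other 3 groups and between 3.33 and 6.01 TPM after PKM2 knockdown.

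The MYC paralogs were nearly silent. MYCN had 0 counts in all 12 libraries, which allows up to 3 counts, or 0.105 to 0.151 CPM depending on depth. MYCL had 3 to 11 counts per library in the NONO experiment and did not pass the low-count filter there. In the PKM2 experiment it had 8, 8 and 12 counts in NC and 7, 11 and 23 in KD, and the log2 fold change of 0.72 (SE 0.48) did not pass the test (edgeR adjusted P = 0.199). The value rested on KD replicate 3, without which it was 0.18, and it reached 1.04 without KD replicate 1, neither with a call. Of the MYC-type activators, MYC alone exceeded 1 TPM in any library.

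NONO knockdown left MYC mRNA within the spread of the libraries. MYC was at 318, 369 and 351 CPM in NC and at 349, 344 and 327 CPM in KD, and every KD value lay inside the NC range. The change on the log2 scale was -0.03 (SE 0.05, edgeR adjusted P = 0.756). Leaving out 1 library at a time moved it between -0.07 and 0.03.

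After PKM2 knockdown, the MYC values overlapped, and the call depended on 1 KD library and on the low-count filter. MYC (chr8:127735434-127741434) was at 265, 372 and 285 CPM in NC and at 320, 214 and 215 CPM in KD. KD replicate 1 lay inside the NC range and the other KD libraries below it. In TPM, MYC was at 200, 290 and 218 in NC (mean 236) and at 222, 149 and 141 in KD (mean 170), with the same overlap. From the counts, the log2 fold change was -0.30 (SE 0.15, edgeR adjusted P = 0.103). Without KD replicate 1 it was -0.51 with an adjusted P of 0.00229, and without the low-count filter it was -0.29 with an adjusted P of 4.19e-07. The unfiltered fit held 29773 genes in place of 15524. Its lower P value came with no larger effect and the same overlapping libraries, and the reason was not tested. In the other direction, the log2 fold change shrank to -0.14 without NC replicate 2 and to -0.19 without KD replicate 2 or 3 (adjusted P = 0.431, 0.330 and 0.268). The knockdowns were not shown to differ for MYC, with a difference of -0.29 on the log2 scale (SE 0.18, edgeR adjusted P = 0.207), which became -0.50 (adjusted P = 0.00682) without PKM2 KD replicate 1 and -0.11 (adjusted P = 0.598) without PKM2 NC replicate 2.

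MAX, the obligate partner, rose slightly after NONO knockdown. MAX (chr14:65006174-65102695, minus strand) was at 58.2, 58.2 and 60.0 CPM in NC and at 65.5, 69.6 and 67.1 CPM in KD, with no overlap. The log2 fold change was 0.20 (SE 0.05, edgeR adjusted P = 0.00938). The call was lost without KD replicate 2 (0.17, adjusted P = 0.0559) and on the log2(TPM + 1) scale, where MAX differed by 0.06 (limma adjusted P = 0.725). After PKM2 knockdown, MAX was at 64.8, 67.0 and 66.9 CPM in NC and at 70.7, 65.9 and 73.1 CPM in KD, and the groups overlapped. The change on the log2 scale was 0.08 (SE 0.06, edgeR adjusted P = 0.231). It turned to -0.03 on the log2(TPM + 1) scale, where the median of all genes was -0.094. The difference between the knockdowns was -0.13 (SE 0.07, edgeR adjusted P = 0.139), and -0.16 (adjusted P = 0.0485) without PKM2 KD replicate 3.

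Among the repressive partners, MXD3 showed the largest change of the network, a fall after PKM2 knockdown. MXD3 (chr5:177301461-177312757, minus strand) was at 12.8, 15.0 and 15.8 CPM in NC and at 4.89, 3.91 and 7.09 CPM in KD. All KD libraries lay well below all NC libraries. The level was 2.73-fold lower, a log2 fold change of -1.45 (SE 0.18, edgeR adjusted P = 1.64e-05), and it stayed between -1.71 and -1.27 with any 1 library removed. MXD3 was the only network gene past the study's cutoff for differentially expressed genes (DEGs), which asks for more than a 2-fold change and an unadjusted P value under 0.05. After PKM2 knockdown 20.8% of all tested genes passed it, 13.8% as lower, and after NONO knockdown 2.95% did, none of them in the network. In TPM the mean went from 20.25 to 4.81.

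After NONO knockdown, MXD3 was at 13.2, 17.4 and 17.3 CPM in NC and at 15.3, 16.3 and 15.2 CPM in KD. The KD values sat inside the NC range. This was a log2 fold change of -0.04 (SE 0.11, edgeR adjusted P = 0.833) and 0.06 on the log2(TPM + 1) scale. The 2 knockdowns differed for MXD3 by -1.43 (SE 0.22, edgeR adjusted P = 3.84e-05), PKM2 minus NONO.

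The MXD3 locus is crowded, so its neighbours were measured as well. In GENCODE 29, 926 of its 5154 exon bases (18.0%) are shared with RAB24, a small GTPase gene, on the same strand and 1158 (22.5%) with PRELID1, a mitochondrial lipid transfer gene, on the opposite strand, and the counting is not stated to use strand. After PKM2 knockdown, RAB24 was at 32.5 ± 3.17 CPM against 32.4 ± 1.93 CPM in NC (log2 fold change 0.00, edgeR adjusted P = 0.971). PRELID1 rose from 226 ± 4.57 to 308 ± 30.5 CPM (log2 fold change 0.45, SE 0.06, edgeR adjusted P = 6.58e-05). After NONO knockdown, RAB24 fell from 39.6 ± 3.90 to 33.1 ± 0.984 CPM (log2 fold change -0.26, SE 0.08, edgeR adjusted P = 0.0219) and PRELID1 was at 0.16 on the log2 scale without a call (edgeR adjusted P = 0.116). Neither neighbour fell with MXD3 after PKM2 knockdown, and reads from the shared bases cannot be told apart.

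**Figure D2:**
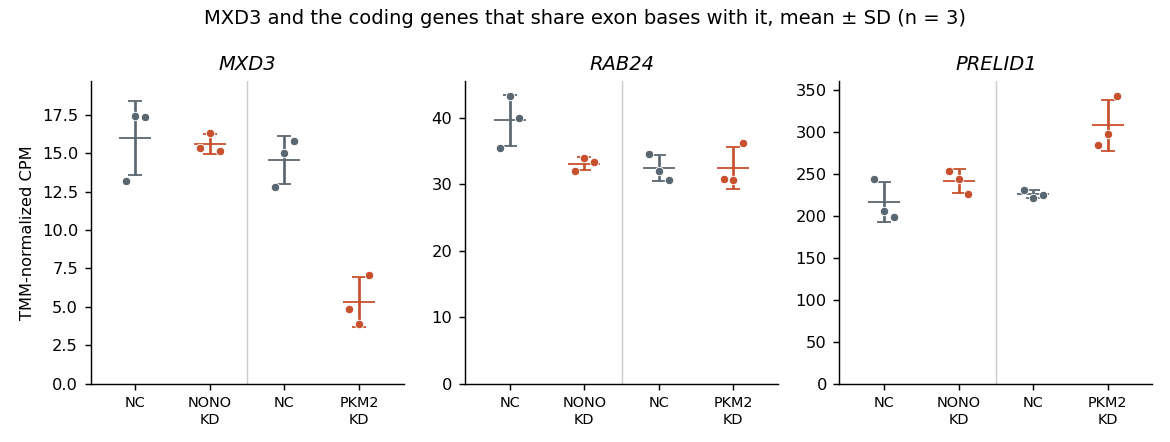
TMM-normalized CPM (vertical axes, linear from 0) of MXD3 and of the 2 coding genes that share exon bases with it, by library (points) with mean ± SD of 3. MXD3 is lower in the PKM2 knockdown, where RAB24 stays near 32.5 CPM and PRELID1 is higher.

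MXD4 moved in opposite directions in the 2 experiments. After PKM2 knockdown, MXD4 (chr4:2247432-2262294, minus strand) went from 44.9, 44.5 and 52.2 CPM to 32.6, 32.3 and 33.1 CPM, with no overlap. The log2 fold change was -0.53 (SE 0.07, edgeR adjusted P = 3.58e-05), and -0.36 once the trend of all genes with GC content and length was taken out. After NONO knockdown, MXD4 went from 46.1, 54.8 and 52.1 CPM to 68.8, 61.4 and 59.0 CPM, again with no overlap. The change on the log2 scale was 0.31 (SE 0.08, edgeR adjusted P = 0.00943). This rise lost its call without KD replicate 1 (0.24, adjusted P = 0.0513) and on the log2(TPM + 1) scale (0.17, limma adjusted P = 0.268). The knockdowns differed by -0.85 (SE 0.11, edgeR adjusted P = 4.15e-06).

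MXD1, the founding member of the MXD family and per length the least abundant of the expressed network genes in NC, fell in both experiments. After NONO knockdown MXD1 (chr2:69897688-69942945) went from 25.3, 28.7 and 26.0 CPM to 23.3, 20.1 and 23.1 CPM, with no overlap (log2 fold change -0.27, SE 0.08, edgeR adjusted P = 0.0301). After PKM2 knockdown it went from 21.4, 23.5 and 21.0 CPM to 21.3, 16.8 and 16.2 CPM, where KD replicate 1 lay among the NC values (log2 fold change -0.28, SE 0.10, edgeR adjusted P = 0.0336). The difference between the knockdowns was -0.03 (SE 0.14, edgeR adjusted P = 0.901). MXD1 shares 237 exon bases with SNRNP27 on the same strand, a splicing factor gene that rose by 0.54 on the log2 scale after PKM2 knockdown (edgeR adjusted P = 1.12e-05), and reads from these bases cannot be told apart. Both calls of MXD1 were near the threshold. The call after NONO knockdown was lost without NC replicate 2 or 3 or KD replicate 2 or 3 (log2 fold changes of -0.20, -0.28, -0.20 and -0.30) and by DESeq2 (adjusted P = 0.0511). It was also lost with limma (adjusted P of 0.116 on the log2(TPM + 1) scale, 0.112 on the log2(TPM + 0.1) scale and 0.252 without the TPM filter) and with a replicate block (0.0626). The call after PKM2 knockdown was lost without NC replicate 1 or 2 or KD replicate 2 or 3 (-0.30, -0.23, -0.22 and -0.19) and with limma without the TPM filter (adjusted P = 0.102).

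MXI1 and MNT, the other expressed repressors, did not pass the test in either experiment. MXI1 (chr10:110207605-110287365) was at 32.1, 42.7 and 38.6 CPM in NC and 39.6, 36.0 and 37.1 CPM after NONO knockdown, and at 23.8, 25.0 and 28.5 CPM in NC and 29.6, 24.4 and 24.8 CPM after PKM2 knockdown. Its log2 fold changes were -0.01 (SE 0.09, edgeR adjusted P = 0.953) and 0.03 (SE 0.09, edgeR adjusted P = 0.797), and the latter was -0.18 on the log2(TPM + 1) scale. MNT (chr17:2384060-2401118, minus strand) was at 33.8, 41.7 and 37.95 CPM in NC and 45.1, 42.3 and 37.9 CPM after NONO knockdown, and at 30.3, 32.3 and 32.7 CPM in NC and 32.3, 33.5 and 33.4 CPM after PKM2 knockdown. The groups overlapped in all these pairs. The log2 fold changes of MNT were 0.14 (SE 0.09, edgeR adjusted P = 0.240) and 0.06 (SE 0.06, edgeR adjusted P = 0.425). With 1 library left out they ranged from 0.078 to 0.225 and from 0.021 to 0.083, none with a call. The PKM2 value of MNT was 0.33 once the trend with GC content and length was taken out, and -0.05 on the log2(TPM + 1) scale. MNT shares 1065 exon bases (12.2%) with the antisense gene AC006435.1, which averaged 11.6 and 19.0 counts in the NONO and PKM2 experiments.

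MGA rose after NONO knockdown, while after PKM2 knockdown its KD values lay below NC without passing the test. After NONO knockdown, MGA (chr15:41621224-41773081) rose from 81.5, 78.4 and 81.3 CPM to 91.5, 91.2 and 90.9 CPM, with no overlap (log2 fold change 0.18, SE 0.04, edgeR adjusted P = 0.00742). The value was 0.07 on the log2(TPM + 1) scale (limma adjusted P = 0.577). After PKM2 knockdown, MGA was at 68.3, 68.6 and 67.6 CPM in NC and 62.4, 66.3 and 50.9 CPM in KD. These groups did not overlap either, and the log2 fold change was -0.19 (SE 0.08, edgeR adjusted P = 0.0626). It was -0.26 with an adjusted P of 0.0189 without KD replicate 2, and -0.18 with an adjusted P of 0.0161 without the low-count filter. A replicate block also gave a call (-0.20, adjusted P = 0.0302), while without KD replicate 3 the value shrank to -0.08 (adjusted P = 0.178). The difference between the knockdowns was -0.38 (SE 0.10, edgeR adjusted P = 0.00361).

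Over the network, NONO knockdown gave 3 higher genes (MAX, MXD4 and MGA), 1 lower gene (MXD1) and 4 that were not called, out of 8 tested. That is 50% called, beside 33.4% of all 14832 tested genes (17.2% lower and 16.2% higher). With limma on log2(TPM + 1), which called 2645 of 13786 genes, 0 of the 8 were called, and 1 had an unadjusted P under 0.05. DESeq2 called 3 higher and 0 lower. The median log2 fold change was 0.07, beside -0.01 over all genes. PKM2 knockdown gave 0 higher genes, 3 lower genes (MXD1, MXD3 and MXD4) and 6 that were not called, out of 9 tested. At an unadjusted edgeR P under 0.05 the higher genes were also 0, and DESeq2 and limma called 0 as well. The edgeR calls made up 33.3%, beside 68.4% of all 15524 tested genes, with 34.7% lower and 33.6% higher. The median was -0.19, beside -0.01. In the comparison of the 2 knockdowns, 3 of 9 genes (MXD3, MXD4 and MGA) passed. Each had a lower log2 fold change after PKM2 than after NONO knockdown. Of 15995 tested genes, 53.1% passed in either direction, 27.4% in that one and 25.7% in the other. The share of calls among all genes that were higher after NONO knockdown was 48.4%, and 34.4% with limma on log2(TPM + 1).

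**Figure D3:**
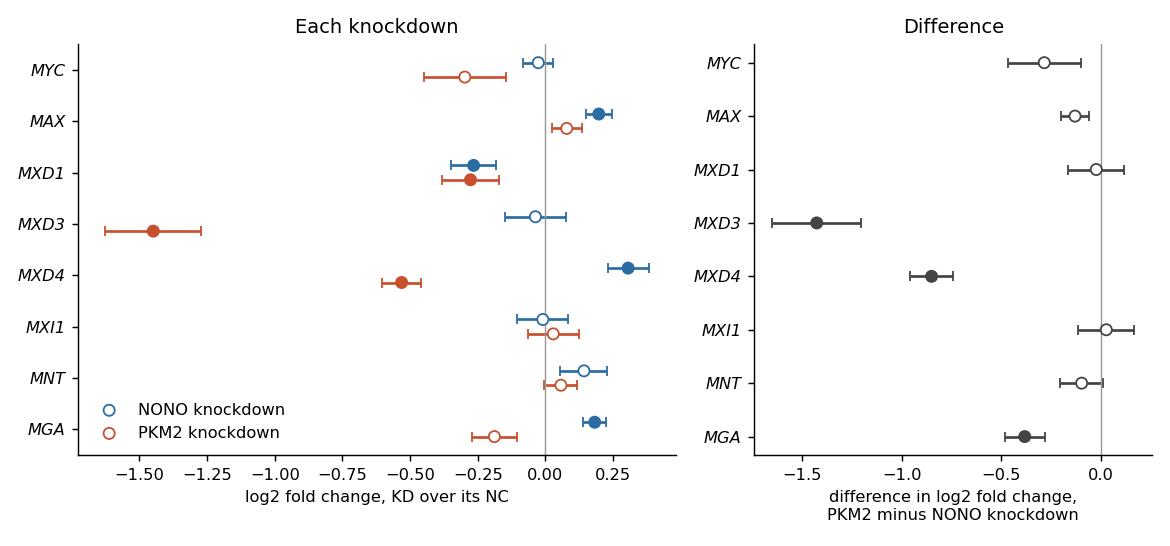
Log2 fold change of each knockdown over its own NC (left) and the difference between them (right) for the 8 expressed network genes, with SE. Filled points passed an adjusted P below 0.05 and open points did not; MXD3 and MXD4 lie to the left after PKM2 knockdown, and MAX, MXD4 and MGA slightly to the right after NONO knockdown.

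The summed level of the 4 MXD genes gives the MXD part of the repressor side as 1 value per library, with no test. MNT, also a repressor, is not in the sum, and its mean was 15.1 TPM in NC and 14.7 TPM after PKM2 knockdown. The sum was 64.5, 87.1 and 85.1 TPM in NC and 85.0, 79.6 and 78.1 TPM after NONO knockdown. In the PKM2 experiment it was 61.9, 68.4 and 73.2 TPM in NC and 44.9, 37.8 and 39.0 TPM in KD. The groups overlapped in the first experiment and stood apart in the second, where the log2 ratio of the means was -0.74 in TPM and -0.41 in CPM. The ratio of MYC to this sum was 3.49 ± 0.67 in NC and 4.16 ± 0.69 after PKM2 knockdown, with overlapping values. The ratio of MYC to MAX was 2.93 ± 0.60 and 2.13 ± 0.41 in the same groups.

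MYC made up most of the network's mRNA per length. Its share of the summed TPM of the 10 genes was 63.9%, 63.0% and 61.5% in NC and 59.8%, 60.7% and 60.5% after NONO knockdown. These groups did not overlap, with a difference of -2.42 percentage points. In the PKM2 experiment the share was 54.6%, 62.8% and 55.2% in NC and 59.1%, 52.1% and 51.3% in KD, and the groups overlapped.

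The cofactors of the network were followed through 5 lists. Each is set beside the 33.4% of all genes called after NONO knockdown and the 68.4% after PKM2 knockdown. These are edgeR shares, and limma on log2(TPM + 1) called fewer of all genes after NONO knockdown (2645 of 13786). In the parallel MLX arm of 3 genes, MLXIP (also called MondoA) and MLXIPL (also called ChREBP) encode sensors of glucose metabolites. Both fell after PKM2 knockdown and MLX rose, while after NONO knockdown 1 of the 3 rose and 1 fell (66.7% called). The one that fell, MLX, lost its call there without KD replicate 1 or 3. MLXIP went from 88.6 ± 3.84 to 37.4 ± 3.87 CPM (log2 fold change -1.25, SE 0.07, edgeR adjusted P = 4.04e-08), and after NONO knockdown it rose by 0.35 on the log2 scale (edgeR adjusted P = 0.000117). MLXIPL fell from 2.48 ± 0.30 to 0.538 ± 0.12 CPM after PKM2 knockdown (log2 fold change -2.20, SE 0.28). On the log2(TPM + 1) scale this was -0.69, with a limma adjusted P of 0.0271, and 0.0579 without the TPM filter.

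The corepressors recruited by MXD proteins and MNT rose in 4 of 9 cases and fell in 0 after NONO knockdown, and rose in 2 and fell in 4 after PKM2 knockdown. This was 44.4% and 66.7% called, and limma on log2(TPM + 1) found 2 that rose after NONO knockdown and 2 that rose and 2 that fell after PKM2 knockdown. The 0 that fell after NONO knockdown became 1 at an unadjusted edgeR P under 0.05, and was 0 with DESeq2 and limma. The histone deacetylase gene HDAC2 fell from 269 ± 4.58 to 130 ± 3.14 CPM after PKM2 knockdown (log2 fold change -1.05, SE 0.04), while its paralog HDAC1 rose in both (0.35 after NONO and 0.44 after PKM2 knockdown). The list's median after PKM2 knockdown was 0.05, and -0.12 on the log2(TPM + 1) scale, where the median of all genes was -0.094. Among 10 partners of MGA in PRC1.6, 2 rose and 3 fell after NONO knockdown, and 6 rose and 4 fell after PKM2 knockdown (50% and 100% called). With limma these were 1 and 2, and 3 and 4, and DESeq2 or the removal of NONO NC replicate 2 or 3 or NONO KD replicate 1 or 3 also gave 1 and 2 after NONO knockdown. PCGF6, the Polycomb ring finger protein that defines the complex, rose by 0.57 and fell by 0.48, and TFDP1, the dimer partner of E2F proteins, fell by 0.96 and rose by 0.42 (log2 fold changes after NONO and PKM2 knockdown). RYBP rose by 0.96 after PKM2 knockdown.

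Of 14 MYC coactivators, 4 rose and 0 fell after NONO knockdown, and 7 rose and 4 fell after PKM2 knockdown. The called shares were 28.6%, below that of all genes, and 78.6%. The 0 that fell stayed 0 at an unadjusted edgeR P under 0.05, with DESeq2 and with limma. The number that rose was 1 and 3 with limma, and 7 after NONO knockdown without NC replicate 1. CREBBP, an acetyltransferase, rose by 1.00 and ZBTB17 (also called MIZ1), a MYC partner in repression, by 0.98 after PKM2 knockdown, and the acetyltransferase KAT5 (also called TIP60) fell by 0.95. The value of ZBTB17 was 0.60 on the log2(TPM + 1) scale, still with a call. The median of this list was 0.11 after PKM2 knockdown, and -0.04 on the log2(TPM + 1) scale, where that of all genes was -0.094. Of 17 regulators of MYC protein stability, 3 rose and 5 fell after NONO knockdown, and 8 rose and 5 fell after PKM2 knockdown (47.1% and 76.5% called). Those that rose after NONO knockdown numbered 0 with limma (2 at an unadjusted P under 0.05), 1 without KD replicate 3 and 6 without NC replicate 1. FBXW7, the ubiquitin ligase subunit that targets phosphorylated MYC for degradation, rose from 14.7 ± 0.40 to 29.6 ± 2.40 CPM after PKM2 knockdown (log2 fold change 1.01, SE 0.08) and fell by 0.35 after NONO knockdown. The rise was 0.36 on the log2(TPM + 1) scale and lost its call (limma adjusted P = 0.0526), and the fall was -0.61 there (adjusted P = 0.0175, and 0.0541 without the TPM filter). PIM3, a kinase of the PIM family, rose by 1.44 after PKM2 knockdown and fell by 0.28 after NONO knockdown.

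Genes commonly listed as MYC targets were followed through 4 further lists. Of 30 ribosome biogenesis genes, 10 rose and 1 fell after NONO knockdown, and 23 rose and 4 fell after PKM2 knockdown, with medians of 0.15 and 0.24. The called shares were 36.7% and 90.0%, beside the same 33.4% and 68.4% of all genes. On the log2(TPM + 1) scale the counts were 6 and 0, and 12 and 7, with medians of 0.08 and 0.10. The medians of all genes on that scale were -0.053 and -0.094. Without NC replicate 1, 21 rose after NONO knockdown in place of 10. NOLC1, a nucleolar chaperone, rose from 177 ± 16.0 to 554 ± 3.97 CPM after NONO knockdown (log2 fold change 1.64, SE 0.06) and from 135 ± 1.09 to 596 ± 16.4 CPM after PKM2 knockdown (2.14, SE 0.05). Nucleolin (NCL) and UTP20 rose after PKM2 knockdown, by 0.73 and 0.90, and had log2 fold changes of -0.07 and 0.12, without a call, after NONO knockdown.

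The 23 polyamine and nucleotide genes were split. After NONO knockdown, 10 rose and 1 fell, and after PKM2 knockdown 10 rose and 10 fell (47.8% and 87.0% called, beside 33.4% and 68.4%). The 10 that rose after NONO knockdown became 3 with limma on log2(TPM + 1), 15 without NC replicate 1, and 5 to 7 without NC replicate 2 or 3 or any 1 KD library. SRM, the spermidine synthase gene, fell from 89.4 ± 4.50 to 5.34 ± 0.64 CPM after PKM2 knockdown (log2 fold change -4.06, SE 0.09, edgeR adjusted P = 3.75e-11), and was at 85.7 ± 2.80 against 87.7 ± 10.7 CPM in NC after NONO knockdown. IMPDH1, an enzyme of guanine nucleotide synthesis, fell from 75.6 ± 0.87 to 18.8 ± 1.45 CPM and its paralog IMPDH2 rose by 0.45 after PKM2 knockdown. TYMS, the thymidylate synthase gene, fell by 1.45 after PKM2 and rose by 0.28 after NONO knockdown. The list's median after PKM2 knockdown was 0.02, and -0.11 on the log2(TPM + 1) scale, where the median of all genes was -0.094.

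Of 27 tested growth and metabolism targets, 8 rose and 4 fell after NONO knockdown, and 12 rose and 9 fell after PKM2 knockdown (44.4% and 77.8% called, beside 33.4% and 68.4%). The 8 became 15 without NC replicate 1, and 5 with limma. The cell cycle activators E2F1 and E2F2 rose by 0.45 and 0.72 after NONO knockdown and fell by 1.22 and 2.26 after PKM2 knockdown. E2F2 was at 12.6 ± 1.94 CPM in NC and 2.62 ± 0.50 CPM in PKM2-knockdown cells. On the log2(TPM + 1) scale its fall was -1.48, with a call, and its rise after NONO knockdown lost the call without the TPM filter (0.53, limma adjusted P = 0.0794). The amino acid transporter gene SLC7A5 fell in both, by 0.48 and 0.60. Of 10 genes that MYC is known to repress, 6 could be tested, of which 1 rose and 3 fell after NONO knockdown and 2 rose and 3 fell after PKM2 knockdown (66.7% and 83.3% called, beside 33.4% and 68.4%). The 1 that rose after NONO knockdown was not called with DESeq2 or limma, nor without KD replicate 1 or 2. CDKN1A, which encodes the cyclin-dependent kinase inhibitor p21, fell in both (-1.23 and -1.27), and CDKN1B, which encodes p27, fell by 0.71 after NONO knockdown and rose by 1.16 after PKM2 knockdown, from 39.5 ± 0.81 to 88.3 ± 0.89 CPM.

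Together the 9 lists held 144 genes, of which 139 were tested in each experiment. After NONO knockdown 43 were higher and 18 lower (43.9% called, beside 33.4% of all genes), and after PKM2 knockdown 71 were higher and 45 lower (83.5%, beside 68.4%). With limma on log2(TPM + 1) these were 19 and 15, and 48 and 44, out of 138 tested in each experiment. Calls over all genes after NONO knockdown also changed, from 4954 of 14832 with edgeR to 2645 of 13786 with limma. When NC replicate 1 was left out of the NONO experiment, 93 list genes were called there in place of 61. Calls over all genes moved as well, between 3554 and 6249 with 1 library left out of that experiment.

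The genes whose profile across the 12 libraries, each relative to the NC mean of its own experiment, was most like that of MYC were LINC00862, CXCL2 and CHAC1 (Pearson r of 0.938, 0.935 and 0.927, among 14524 genes). For MXD3 they were DCST1-AS1, FAM162A and PDLIM7 (0.990, 0.987 and 0.986). These values describe the ranking only, since all libraries of a group share their condition. The MXD3-like genes had log2 fold changes of -2.16, -0.75 and -0.36 after PKM2 knockdown and of -0.12, 0.01 and 0.04 after NONO knockdown.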

How the data were processed

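RNA-seq of MDA-MB-231 cells gave 12 poly(A)-selected paired-end libraries (150 bases), in 4 groups of 3 taken from the sample labels. For each gene and library, the authors deposited estimated counts, many of them fractional, along with TPM values. The submitters' processing notes name fastp, HISAT2, StringTie, RSEM, DESeq2, edgeR, limma and hg19, without versions. Column names are identical in the 2 tables, so a column was mapped by the table it stands in, and 0 columns of per-library values were left unused. The authors' fold changes, P values and mean TPM columns were not used. Genes were matched by identifier between the tables of 60623 and 60671 genes.

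Estimated counts were rounded and tested with edgeR 4.0.16 (R 4.3.3), by the quasi-likelihood test with TMM and filterByExpr at defaults, in each experiment separately, without a replicate block. P values were adjusted by the Benjamini-Hochberg method over all tested genes, and a gene was called below 0.05. SEs came from the F statistic. The difference between the knockdowns was an interaction over all 12 libraries. The limma settings and the removal of the GC and length trend, listed next, were not applied to it. The alternatives were RLE factors, DESeq2 1.42.0, no low-count filter, limma 3.58.1 on log2(TPM + 1) or log2(TPM + 0.1) for genes with a mean of at least 1 TPM or all genes, a replicate block, removal of the median trend in 20 bins of GC content and of length, and each library left out in turn. For the summed MXD level and the MYC share, the left-out libraries were chosen after seeing the data. In the self-test on simulated counts, 200 genes changed 4-fold were recovered in 200, 200 and 199 cases by edgeR (NONO with 14846 genes, PKM2 with 15538 genes and their difference with 15852 genes). False calls numbered 8, 16 and 12. Smaller changes and an outlying library were not simulated, so this recovery does not cover the small changes of most network genes.

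The network genes and lists were chosen with earlier results of these data known. Named genes were the network genes, the targeted genes, up to 3 genes per list and experiment with the largest absolute log2 fold change among those called with a mean of at least 1 TPM, and the 3 genes most like MYC and like the most changed other network gene. The exon neighbours of MXD3 were added after their positions were seen. Coordinates come from GENCODE 29 on GRCh38 and promoters from RefSeq on GRCh38.p14, for location only. With 3 libraries a group, replicates differed beyond counting noise (chi-square per degree of freedom from 2.38 to 13.4). The highest values were in pairs with NONO NC replicate 1 (11.1 and 8.94) or PKM2 KD replicate 3 (13.4 and 11.4). All other pairs were at 4.41 or below. Each library was counted as its own replicate, although this spread does not show that they came from separate cultures. The floor of 3 counts covers counting error only.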

Additional observations from a re-analysis of the deposited data

Results flagged for a closer look

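The results in this part passed the test of the difference between the knockdowns (edgeR's quasi-likelihood interaction, Benjamini-Hochberg adjusted P below 0.05 over all genes, 53.1% of which passed). Values are the log2 fold change after PKM2 knockdown minus that after NONO knockdown. Of the network genes, MXD3 (-1.43), MXD4 (-0.85) and MGA (-0.38) had negative values. For MXD4 and MGA this includes a rise after NONO knockdown, and MGA did not pass the test after PKM2 knockdown alone. Of 44 named list genes, 32 differed, 16 in each direction, with a largest adjusted P of 0.0271. These genes were picked for large called changes in 1 of the same experiments. Their share is therefore not comparable with that of all genes.

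In the MLX arm, MLXIP was at -1.61, MLXIPL at -2.23 and MLX at 0.43. Among corepressors, RBBP4 was at -0.29, NCOR1 at -0.53, HDAC2 at -1.12 and SAP18 at 0.48. Among the PRC1.6 partners of MGA, TFDP1 was at 1.37, PCGF6 at -1.06, RYBP at 1.17, YAF2 at 0.52 and E2F6 at 0.49. Among coactivators, ACTL6A was at 0.29, CREBBP at 0.86, ZBTB17 at 0.90 and KAT5 at -0.91. Among regulators of MYC stability, FBXW7 was at 1.34, PIM3 at 1.70 and USP28 at -0.48.

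Of the ribosome biogenesis genes, NOLC1 was at 0.49, TCOF1 at -0.63, UTP20 at 0.76 and NCL at 0.79. Of the polyamine and nucleotide genes, SRM was at -4.04, IMPDH1 at -2.11, TYMS at -1.75 and DHODH at -0.48. Of the growth genes, E2F2 was at -3.00, E2F1 at -1.68, TERT at -1.22 and EIF4A1 at 0.25. CDKN1B was at 1.85. The calls of DHODH (-0.33 to -0.46, without NONO NC replicate 2, NONO KD replicate 2 or 3, PKM2 NC replicate 3 or PKM2 KD replicate 2) and of YAF2 (0.42 to 0.50, without NONO NC replicate 3, NONO KD replicate 1, PKM2 NC replicate 3 or PKM2 KD replicate 2) were lost when the named library was left out.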

How the results depend on the processing

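The PKM2 changes of MXD3 and MXD4 kept their direction and call under each alternative with a test. The differences between the knockdowns for MXD3, MXD4 and MGA kept theirs under each alternative that was fitted for them. These did not include limma or removal of the GC and length trend, so their dependence on the TPM scale was not tested. For the results below, the cause was not tested. Calls after NONO knockdown numbered 4954, and with limma 2645 (log2(TPM + 1)), 2657 (log2(TPM + 0.1)) and 1699 (log2(TPM + 1), no filter). By the DEG cutoff they numbered 437, and 3234 of 10614 after PKM2 knockdown. List calls after NONO knockdown were 34, 34 and 27 of 61 under the same 3 limma settings, and 47 to 93 with a library left out. After NONO knockdown, the 3 limma settings gave MAX log2 values of 0.058, 0.058 and 0.058, MXD1 of -0.26, -0.29 and -0.26, MXD4 of 0.17, 0.18 and 0.17 and MGA of 0.069, 0.075 and 0.069, all without a call, and turned MXD3 to 0.056, 0.059 and 0.056 and MXI1 to 0.0028, 0.0030 and 0.0028. MXD1 was at -0.26 with DESeq2, also without a call. After PKM2 knockdown, limma turned MAX to -0.027, -0.028 and -0.027, MXI1 to -0.18, -0.19 and -0.18 and MNT to -0.048, -0.051 and -0.048, and MXD1 lost its call at -0.33 without the TPM filter. On the log2(TPM + 0.1) scale the median of all genes was -0.10 after PKM2 knockdown. Without the low-count filter, MYC (-0.29, and -0.30 for the difference) and MGA (-0.18) were called. With GC content and length taken out, MXD4 was at -0.36 and MNT at 0.33. In CPM in place of TPM, the summed MXD level was at -0.41 after PKM2 knockdown. Same-numbered replicates did not deviate together (correlations of -0.07 to 0.04), so the number was not taken as pairing. With a replicate block, 4351 genes were called after NONO knockdown, 10525 after PKM2 knockdown and 8239 for the difference, MXD1 lost its call after NONO knockdown (-0.27, adjusted P = 0.0626) and MGA gained one after PKM2 knockdown (-0.20, adjusted P = 0.0302).

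With a library left out, the values after NONO knockdown ranged from -0.074 to 0.030 for MYC, 0.17 to 0.22 for MAX, -0.30 to -0.20 for MXD1, -0.15 to 0.035 for MXD3, 0.24 to 0.37 for MXD4 and -0.10 to 0.094 for MXI1. After PKM2 knockdown they ranged from -0.51 to -0.14 for MYC, -0.40 to -0.19 for MXD1, -0.057 to 0.11 for MXI1 and -0.26 to -0.077 for MGA, and for the difference from -0.50 to -0.11 for MYC, -0.16 to -0.092 for MAX, -0.15 to 0.051 for MXD1 and -0.066 to 0.14 for MXI1. The difference between the knockdowns changed sign for list genes with values near 0, namely CBX3 (0.0037 with RLE factors and 0.0037 with DESeq2), SKP2 (0.012 and 0.012), and, with a library left out, CBX3 (-0.055 to 0.036), SKP2 (-0.11 to 0.087), IMPDH2 (-0.014 to 0.086) and CDKN1A (-0.11 to 0.0067). Depth limits MYCN, with 0 counts, and MYCL, with at most 23.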
